A study of Homo sapiens with 18 samples.

Results

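A set of 9 genes that bind, sense or move zinc was followed in THP-1 cells, a human monocytic leukaemia line, after knockdown of TRAFD1 and after exposure to bacterial lipopolysaccharide (LPS). They were the metallothioneins MT2A, MT1E, MT1F, MT1G and MT1X, the transcription factor MTF1, the zinc importers SLC39A8 and SLC39A14, and the zinc exporter SLC30A1. Each was listed by name and matched by its Ensembl identifier in a table of 63677 genes. All 9 of 9 had counts in every library, between 52 and 2532 per library, and all 9 were among the 16678 genes tested.

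The samples formed 6 groups of 3 libraries. KD cells received 1 siRNA directed at TRAFD1 and SCR cells a non-targeting siRNA of undisclosed sequence, each at 25 nM. WT cells received no siRNA, and the labels disagree on whether they saw the transfection mix, so in a difference between SCR and WT the parts of transfection and of siRNA cannot be told apart. After 72 h each condition was left in medium (unstimulated, replicates 1 to 3) or given LPS at 10 ng/ml (replicates 4 to 6) for 4 h. All groups share the same line and the same medium with serum. The labels say that treatments were in triplicate without saying whether the cultures were independent, so p-values measure the spread between these libraries.

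Metallothioneins are small cysteine-rich proteins that bind zinc and copper. MTF1 senses free zinc in the cell, enters the nucleus and switches on metallothionein genes and SLC30A1 through short DNA motifs called metal response elements. SLC39 proteins (the ZIP family, with SLC39A8 as ZIP8 and SLC39A14 as ZIP14) carry zinc into the cytosol, and SLC30 proteins (the ZnT family, with SLC30A1 as ZnT1 at the plasma membrane) carry it out. In monocytes and macrophages, movement of zinc and expression of ZIP8 and metallothioneins are known parts of the response to bacterial products.

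Counts came from QuantSeq, which reads 1 fragment from the 3-prime end of each polyadenylated transcript. Transcript length therefore does not enter the values, and levels of different genes are given side by side as CPM, the count as a share of the library total brought to a common size, with totals scaled by the trimmed mean of M values (TMM). Library totals ran from 8206023 to 22344279 counts, and 3 counts, up to which a library with no read of a gene leaves its level open, equalled 0.133 to 0.378 CPM. TRAFD1 itself was at 26.8, 20.1 and 24.3 CPM in unstimulated SCR and at 11.6, 5.37 and 9.02 CPM in unstimulated KD, a log2 difference of -1.45 (SE 0.23, adjusted p = 0.0277). Under LPS it was at 21.9, 27.5 and 18.7 CPM in SCR and 15.8, 14.0 and 13.8 CPM in KD, a difference of -0.65 (SE 0.22, adjusted p = 0.262), and the KD libraries overlapped the WT libraries at 19.2, 20.3 and 11.6 CPM. In edgeR the knockdown thus passed without LPS and not with it, but both calls depended on the fit. With LPS it passed when genes with few counts were kept (-0.66, adjusted p = 0.0275) and when DESeq2 was run on these 6 libraries (-0.65, adjusted p = 0.0167). The call without LPS was lost with the libraries of the contrast alone (-1.41, adjusted p = 0.0847) and without SCR replicate 1 (-1.35, adjusted p = 0.119), SCR replicate 3 (-1.44, adjusted p = 0.112) or KD replicate 2 (-1.20, adjusted p = 0.064). All 9 monocyte markers examined were detected, with a summed level of 459 to 645 CPM per library. FCGR1A had the most counts of the 9, at 2522 to 6976 per library, and MPO the fewest, at 2 to 49. The summed levels were 0 to 0.616 CPM for 4 T cell markers, 2.52 to 6.28 CPM for 4 B cell markers, 10.3 to 17.2 CPM for 3 NK cell markers, 0 to 0.252 CPM for 4 erythroid markers (1 of them with no count), 0.252 to 3.16 CPM for 4 epithelial markers and 0.604 to 2.94 CPM for 3 fibroblast markers.

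In GRCh37, the build of the files, the 5 metallothionein genes lie in 1 cluster on chromosome 16: MT2A at chr16:56642496-56643409, MT1E at chr16:56659387-56661024, MT1F at chr16:56691643-56694610, MT1G at chr16:56700642-56701977 and MT1X at chr16:56716382-56718108. MT1G is on the reverse strand and the other members of the cluster on the forward strand. MTF1 (chr1:38275246-38325264) and SLC30A1 (chr1:211744910-211752503) are both on the reverse strand of chromosome 1, and SLC39A8 (chr4:103172237-103352415) is on the reverse strand of chromosome 4. The metallothioneins are related copies that share stretches of sequence. Of the 50-base windows in the final 500 bases of each transcript, 11.1% for MT2A, 11.8% for MT1E, 6.12% for MT1F, 18.6% for MT1G and 14.1% for MT1X occur elsewhere in the genome, so that some of their reads may be split between copies, while the percentage was 0 for MTF1, SLC39A8, SLC39A14 and SLC30A1. Values of single metallothioneins are therefore uncertain. The percentages count exact windows and not reads, so they do not give the size of that uncertainty.

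The stretches before the start of MT2A, MT1X and SLC30A1 are shown because these are the members that MTF1 is known to switch on and for which a sequence was at hand. Each is the 250 bases upstream of the RefSeq start (GRCh38.p14), with matches to the metal response element core in capitals. The core was searched as TGCACNC and TGCGCNC on both strands, where N is any base.
MT2A (chr16:56608334-56608583, forward strand): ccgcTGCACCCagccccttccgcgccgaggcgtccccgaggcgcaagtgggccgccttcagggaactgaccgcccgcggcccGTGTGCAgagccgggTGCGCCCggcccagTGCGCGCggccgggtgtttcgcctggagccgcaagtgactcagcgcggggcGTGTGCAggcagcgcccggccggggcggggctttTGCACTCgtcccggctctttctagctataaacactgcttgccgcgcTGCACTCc
MT1X (chr16:56682220-56682469, forward strand): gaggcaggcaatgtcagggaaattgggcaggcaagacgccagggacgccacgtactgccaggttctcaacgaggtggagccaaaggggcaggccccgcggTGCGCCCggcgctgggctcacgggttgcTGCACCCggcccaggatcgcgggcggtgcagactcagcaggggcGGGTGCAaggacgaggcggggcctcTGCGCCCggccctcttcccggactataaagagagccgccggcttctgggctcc
SLC30A1 (chr1:211579162-211579411, reverse strand): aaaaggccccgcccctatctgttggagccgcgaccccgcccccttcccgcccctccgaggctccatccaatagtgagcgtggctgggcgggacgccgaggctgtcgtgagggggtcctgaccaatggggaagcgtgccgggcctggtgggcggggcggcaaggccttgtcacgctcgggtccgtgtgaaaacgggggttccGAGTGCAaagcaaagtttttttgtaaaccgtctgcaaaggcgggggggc
MT2A held 7 matches, MT1X 4 and SLC30A1 1. The window before MTF1 held 0, and of 3 annotated starts of SLC39A8 the windows of 2 held 0 and that of the other held 1. Among all 35116 promoters of this length in the table, 24.83% held at least 1 match, 0.3702% at least 4 and 0.03132% at least 7. MT1E, MT1F, MT1G and SLC39A14 were not examined. A match is a description of the letters, not a binding site.

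**Figure D1:**
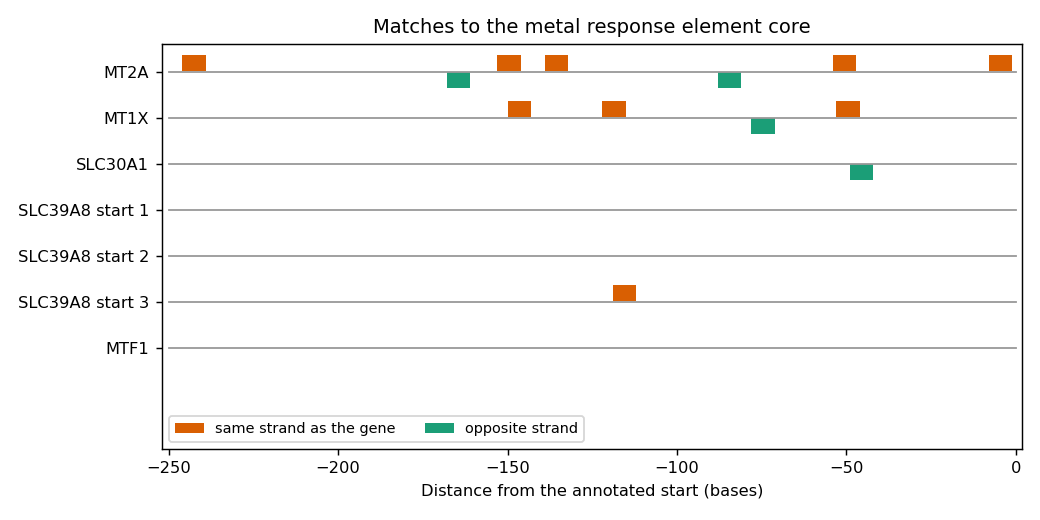
Matches to the metal response element core in the 250 bases before each annotated start, by distance from the start in bases on the x axis, with 1 line per start and matches on the strand of the gene above the line and on the other strand below it. MT2A carries 7 matches and MT1X 4, whereas SLC30A1 and 1 start of SLC39A8 carry 1 each and MTF1 carries 0.

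Before stimulation the members spanned a wide range of levels. In unstimulated WT the order of the means (± SD, n = 3) was MT2A at 82.5 ± 4.24 CPM, SLC39A14 at 79.0 ± 19.4, MT1E at 69.6 ± 6.0, SLC30A1 at 55.7 ± 3.55, MT1F at 44.2 ± 2.85, MTF1 at 40.0 ± 2.14, SLC39A8 at 12.5 ± 3.48, MT1G at 9.38 ± 1.42 and MT1X at 4.91 ± 0.915 CPM. The libraries of MT2A overlapped those of SLC39A14, those of SLC39A14 overlapped those of MT1E, and those of SLC39A8 overlapped those of MT1G. The other neighbours in this order did not overlap, although MT1F and MTF1 were separated only by 41.9 against 41.7 CPM. With LPS the order in WT changed, to MT2A at 141 ± 14.3 CPM, MTF1 at 125 ± 6.99, MT1E at 98.2 ± 8.46, SLC30A1 at 85.1 ± 9.07, SLC39A14 at 47.1 ± 10.8, MT1F at 43.7 ± 6.0, SLC39A8 at 25.3 ± 6.42, MT1G at 10.1 ± 0.570 and MT1X at 5.60 ± 0.602 CPM. MTF1 thus moved up the order to stand next to MT2A, whose libraries it overlapped.

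**Figure D2:**
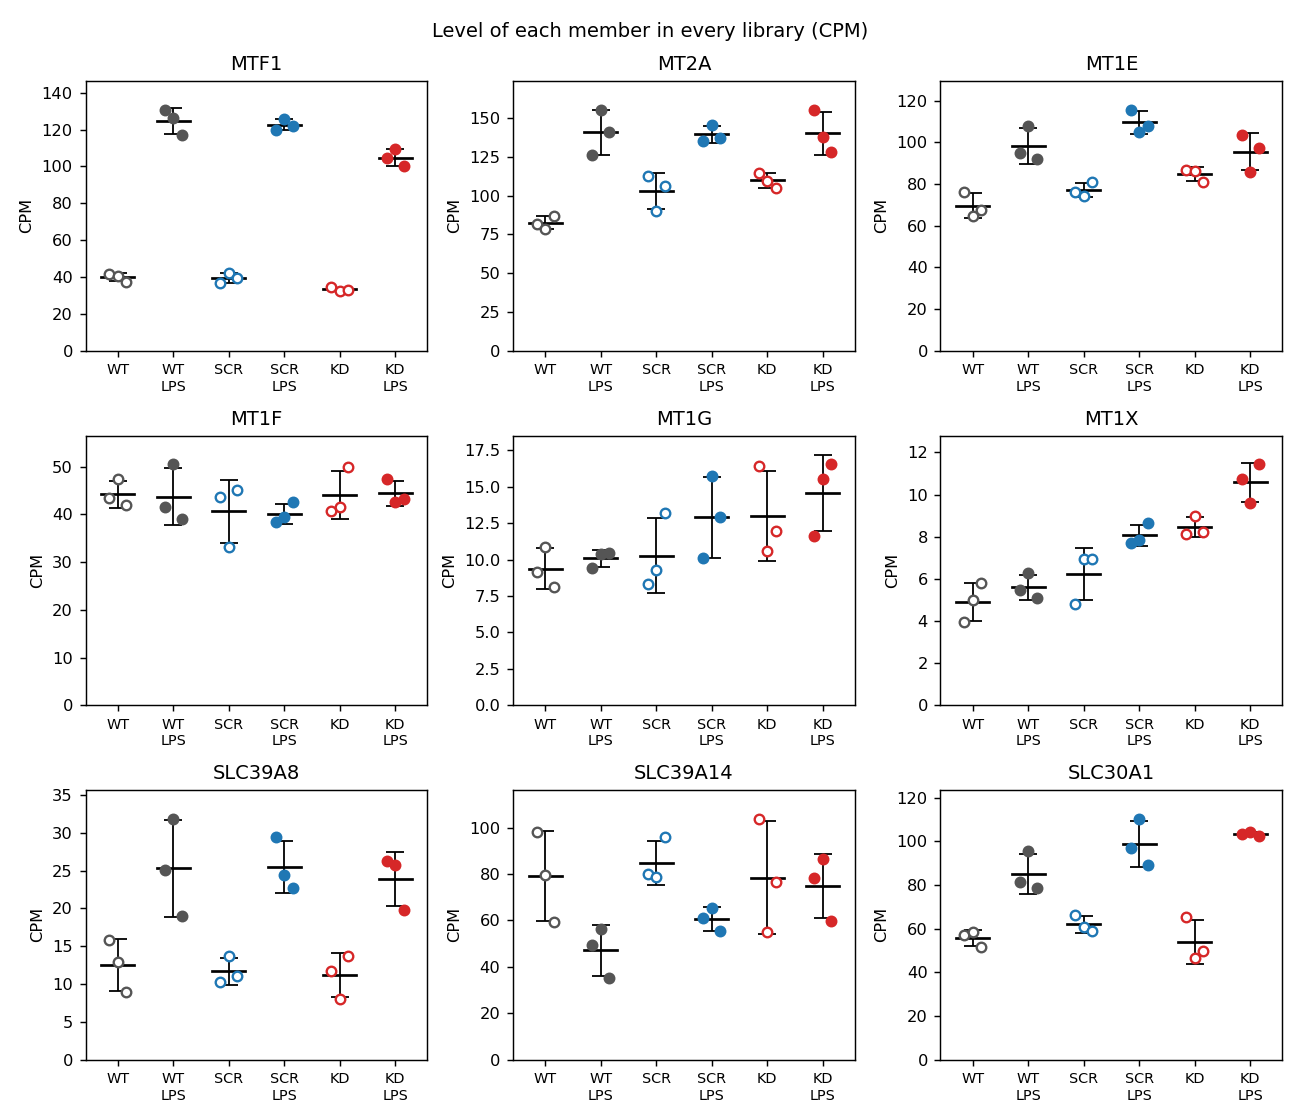
CPM of the 9 members on a linear y axis from 0, 1 panel per gene, in the 6 groups on the x axis, with 1 point per library (open without LPS, filled with LPS) and the mean ± SD of 3 libraries in black. MTF1 and SLC39A8 are higher in every LPS library than in every unstimulated library, and the mean of MT1X is lowest in WT and highest in KD in both states.

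The first question was which of these genes responded to LPS. MTF1, SLC39A8, SLC30A1 and MT2A rose in WT, in SCR and in KD, MT1E rose in WT and SCR, and SLC39A14 fell in WT. MT1F, MT1G and MT1X did not pass the test in any condition. In WT, 6 of 9 members passed (5 higher, 1 lower) against 14.3% of all genes tested, in SCR 5 of 9 (all higher) against 17.2%, and in KD 4 of 9 (all higher) against 11.5%. The median log2 change of the members was 0.50 in WT, 0.44 in SCR and 0.32 in KD, while the median over all genes tested was -0.03, -0.03 and -0.003. The members were chosen with earlier results of these data known, so these shares and medians describe the set and do not test it. In these bulk libraries, more RNA per cell and more cells that express a gene cannot be told apart.

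MTF1, the zinc sensor, responded most among the members. Its levels in WT were 41.7, 40.6 and 37.6 CPM without LPS and 131, 127 and 117 CPM with LPS. In SCR they were 37.0, 42.0 and 39.3 against 120.0, 126 and 122 CPM, and in KD 34.4, 32.6 and 33.2 against 105, 109.6 and 100.1 CPM. Every LPS library was above every unstimulated library. The log2 change was 1.64 (SE 0.09, adjusted p = 1.56e-11) in WT, 1.64 (SE 0.09, adjusted p = 5.13e-11) in SCR and 1.65 (SE 0.09, adjusted p = 5.04e-11) in KD, a rise of 3.12-fold, 3.11-fold and 3.14-fold. The 95% confidence interval of the difference in this response between KD and SCR ran from -0.25 to 0.27 on the log2 scale, and between KD and WT likewise from -0.25 to 0.27.

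The importer SLC39A8 had the next largest rise in each condition. It stood at 15.8, 12.9 and 8.89 CPM in WT and rose to 25.1, 31.8 and 19.0 CPM (log2 1.02, SE 0.22, adjusted p = 0.00301). In SCR it went from 10.3, 13.7 and 11.0 to 29.4, 24.4 and 22.7 CPM (1.13, SE 0.23, adjusted p = 0.00143). In KD it went from 11.8, 8.01 and 13.8 to 26.3, 25.7 and 19.8 CPM (1.10, SE 0.23, adjusted p = 0.00261). No LPS library overlapped the unstimulated ones of its condition, and the WT libraries spread the most in both states. The fold changes were 2.03, 2.19 and 2.14.

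SLC30A1, the exporter, rose with LPS too. Its levels went from 57.0, 58.4 and 51.7 to 81.4, 95.4 and 78.4 CPM in WT (log2 0.61, SE 0.12, adjusted p = 0.00112), from 66.2, 60.6 and 59.0 to 97.1, 110.2 and 89.1 CPM in SCR (0.67, SE 0.12, adjusted p = 0.000518), and from 65.2, 46.5 and 49.9 to 103, 104 and 102 CPM in KD (0.94, SE 0.12, adjusted p = 1.44e-05). The groups did not overlap in any condition. The change was 1.53-fold in WT, 1.59-fold in SCR and 1.92-fold in KD, but the test of the difference between KD and SCR did not pass (0.27, SE 0.17, adjusted p = 0.733), nor did that between KD and WT (0.32, SE 0.17, adjusted p = 0.364).

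SLC39A14, the other importer, lies on the forward strand at chr8:22224791-22291642 and moved the opposite way. In WT it stood at 98.3, 79.4 and 59.4 CPM without LPS and at 49.5, 56.4 and 35.3 CPM with LPS, a fall of 1.68-fold (log2 -0.74, SE 0.21, adjusted p = 0.0187). In SCR it was at 79.9, 78.7 and 95.8 against 61.0, 65.3 and 55.3 CPM (-0.49, SE 0.21, adjusted p = 0.115), and in KD it was at 104, 54.9 and 76.5 against 78.2, 86.4 and 59.7 CPM (95% confidence interval of the log2 change -0.50 to 0.36, adjusted p = 0.871). Libraries of the states were separate in WT and SCR and overlapped in KD. The call in WT was lost without WT replicate 1 (-0.56, adjusted p = 0.118) and without WT replicate 6 (-0.57, adjusted p = 0.108). The gap between the response in KD and in WT was 0.68 (SE 0.29, adjusted p = 0.28) and that between KD and SCR 0.42 (SE 0.29, adjusted p = 0.752), neither past the threshold.

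Of the metallothioneins, MT2A and MT1E responded. MT2A went from 82.0, 78.5 and 86.9 to 126, 155 and 141 CPM in WT (log2 0.77, SE 0.10, adjusted p = 1.4e-05, 1.71-fold), from 113, 90.2 and 106 to 135, 145 and 137 CPM in SCR (0.44, SE 0.10, adjusted p = 0.00531, 1.35-fold), and from 115, 109 and 105 to 155, 138 and 128 CPM in KD (0.35, SE 0.10, adjusted p = 0.0294, 1.28-fold). The LPS levels of the 3 conditions overlapped, and it was the unstimulated level that was lowest in WT. The call in KD was lost without KD replicate 2 (0.35, adjusted p = 0.0623), 3 (0.32, adjusted p = 0.111), 4 (0.27, adjusted p = 0.141) or 5 (0.36, adjusted p = 0.0707). The response was smaller in KD than in WT by 0.42 on the log2 scale (SE 0.15, adjusted p = 0.195) and smaller in SCR than in WT by 0.34 (SE 0.15, adjusted p = 0.467), differences that did not pass the threshold.

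MT1E went from 76.3, 64.7 and 67.7 to 94.8, 108 and 92.1 CPM in WT (log2 0.50, SE 0.10, adjusted p = 0.00125) and from 76.2, 74.1 and 80.9 to 116, 105 and 108 CPM in SCR (0.51, SE 0.10, adjusted p = 0.00116). In KD it was at 86.8, 86.2 and 80.8 without LPS and 103, 85.8 and 97.2 CPM with LPS (0.17, SE 0.10, adjusted p = 0.274). The states were separate in WT and SCR and overlapped in KD through 1 LPS library. The response in KD differed from that in SCR by -0.33 (SE 0.14, adjusted p = 0.624) and from that in WT by -0.32 (SE 0.14, adjusted p = 0.278), so a difference between conditions was not shown.

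MT1F lay between 33.1 and 50.5 CPM over all 18 libraries and overlapped between the states in every condition, and the 95% confidence intervals of its log2 change with LPS lay within -0.29 to 0.27. MT1G lay between 8.09 and 16.5 CPM and also overlapped in every condition, with wider intervals that together ran from -0.34 to 0.79. For MT1X the intervals together ran from -0.23 to 0.80, and its libraries were separate between the states in SCR and KD (log2 0.39, SE 0.20, adjusted p = 0.187, and 0.32, SE 0.19, adjusted p = 0.29). MT1X had 52 to 160 counts per library.

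**Figure D3:**
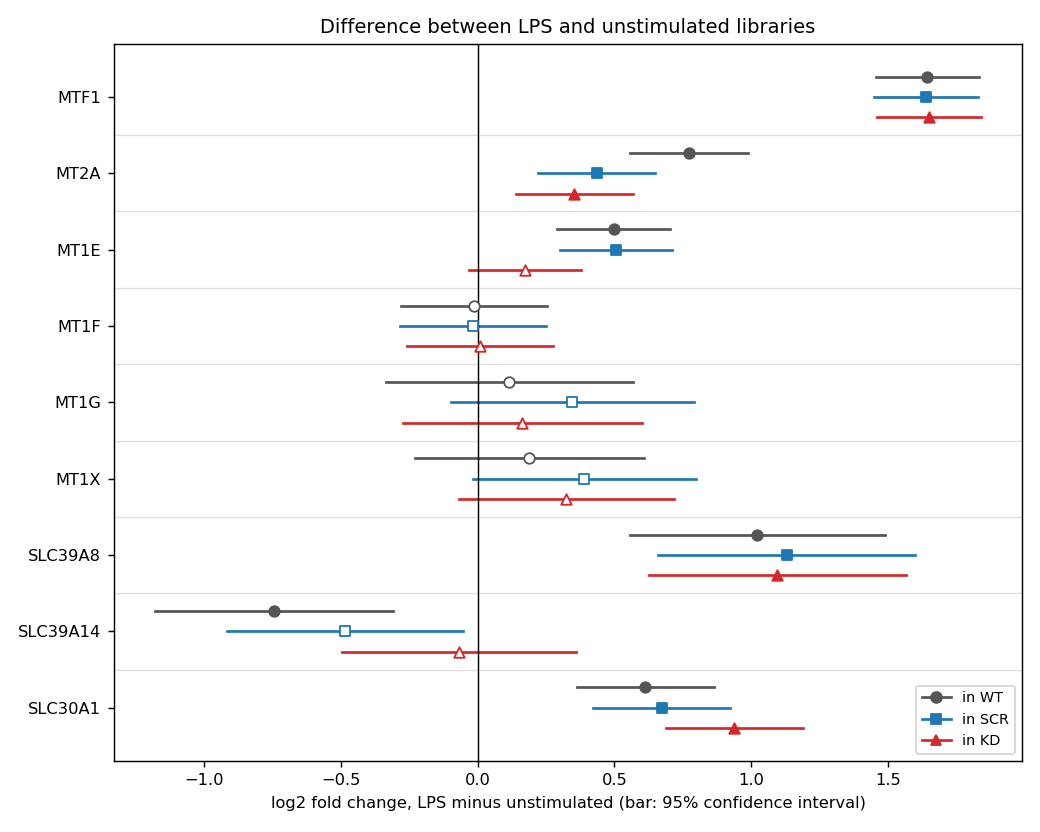
Log2 fold change of each member between LPS and unstimulated libraries on the x axis, with 95% confidence intervals as bars, in WT, SCR and KD (filled symbols passed an adjusted p of 0.05 in edgeR, open symbols did not). MTF1 sits at 1.64 to 1.65 in the 3 conditions and SLC39A14 goes from -0.74 in WT to an interval across 0 in KD.

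Added over the 5 genes, metallothionein RNA was 211 ± 4.17 CPM in unstimulated WT and 299 ± 27.9 CPM in WT with LPS (SD, n = 3). It was 237 ± 20.7 against 310.1 ± 3.35 CPM in SCR, and 260.0 ± 6.07 against 305 ± 20.2 CPM in KD. The sum of every LPS library was above that of every unstimulated library, and the lowest unstimulated sum in KD (256.2) was above the highest in SCR (252) and in WT (215). MT2A made up 39.2% of the sum in unstimulated WT and 47.2% in WT with LPS, while MT1F went from 21.0% to 14.6%. MT2A and MT1E together carried most of the sum in each group, and MT1X at most 3.48%.

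**Figure D4:**
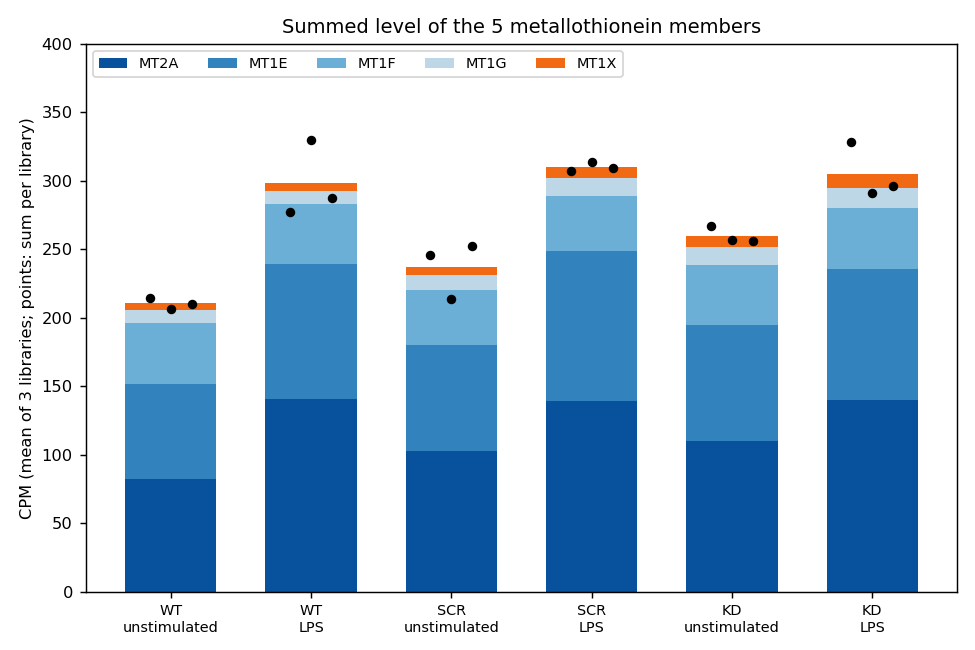
Summed CPM of the 5 metallothionein members on the y axis in the 6 groups on the x axis, with bars stacked from the mean of each gene over 3 libraries and black points for the sum in each library. The sum goes from 211 to 299 CPM with LPS in WT and from 260.0 to 305 CPM in KD, and MT2A is the bottom and largest segment of each bar.

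The second question was whether these genes depended on TRAFD1, for which KD was set against SCR. No member passed the test in either state. Without LPS, 0 of 9 passed in edgeR against 0.066% of all genes tested, and with LPS 0 of 9 against 0% of all genes. At an unadjusted p under 0.05 there were 2 members without LPS, beside 2107 of all 16678 genes, and 1 with it, beside 1963, and DESeq2 on all libraries also called 0 in both states, although with LPS its filter gave no adjusted p to SLC39A8, MT1G and MT1X. Over all genes, DESeq2 on all libraries called 242 of the 14413 it gave an adjusted p without LPS and 142 of 4714 with it. The test of whether the LPS response differed between KD and SCR called 0 of 9 members and 0% of all genes in edgeR. At an unadjusted p under 0.05 there were 1 member and 1274 of all genes. DESeq2 on all libraries called 0 members there, beside 3 of 16677 genes.

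MTF1 and MT1X stood nearest to a difference. MTF1 was lower in each KD library than in each SCR library of the same state, by 0.24 on the log2 scale (SE 0.09, adjusted p = 0.275) without LPS and by 0.23 (SE 0.09, adjusted p = 0.316) with it. MT1X was at 4.80, 6.94 and 6.93 CPM in unstimulated SCR and at 8.12, 9.01 and 8.24 CPM in unstimulated KD (0.46, SE 0.19, adjusted p = 0.327). With LPS it was at 7.69, 7.85 and 8.64 CPM in SCR and at 10.7, 9.60 and 11.4 CPM in KD (0.39, SE 0.19, adjusted p = 0.438). KD and SCR libraries of both genes were separate in both states, and neither difference passed the threshold. Under LPS the KD and SCR libraries were also separate for MT1E, lower in KD (-0.20, SE 0.10, adjusted p = 0.44), and for MT1F, higher in KD (0.14, SE 0.13, adjusted p = 0.687). The share of all genes with separate libraries was not counted, here or in the other comparisons. Separation alone therefore does not set these genes apart. For the remaining comparisons of members the 95% confidence intervals of the difference between KD and SCR lay between -0.54 and 0.79, the widest being those of SLC39A8, SLC39A14 and MT1G. Those of MT2A were narrower, within -0.20 to 0.31.

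SCR and WT, neither of which received the TRAFD1 siRNA, were compared to see what the control condition alone changed. Again 0 of 9 members passed in edgeR, against 3.23% of all genes without LPS and 0.114% with LPS, with 1 member at an unadjusted p under 0.05 in each state, beside 2866 of all 16678 genes without LPS and 2285 with it. DESeq2 on all libraries called 1 member without LPS, MT2A (log2 0.32, adjusted p = 0.0499), beside 929 of 14413 genes. With LPS it called 0, beside 196 of 9241 genes, and gave MT1X no adjusted p. In edgeR this difference of MT2A was 0.32 (SE 0.10, adjusted p = 0.0921), with all SCR libraries above all WT libraries. Its adjusted p lay between 0.0499 and 0.188 under the other settings and between 0.0539 and 0.336 with each library left out in turn. MT1X under LPS was at 5.45, 6.27 and 5.09 CPM in WT, below each SCR library (0.52, SE 0.20, adjusted p = 0.264). The difference in LPS response between SCR and WT passed for 0 of 9 members in edgeR against 0.234% of all genes. At an unadjusted p under 0.05 there were 1 member and 1661 of all genes. DESeq2 on all libraries called 0 members, beside 85 of 16677 genes.

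KD against WT combines the TRAFD1 siRNA with whatever separates SCR from WT, and shares libraries with the comparisons above. Here 2 of 9 members passed without LPS (both higher, 11.7% of all genes tested) and 2 of 9 with LPS (both higher, 10.8%). MT1X passed in both states, at 0.78 (SE 0.19, adjusted p = 0.0123, 1.72-fold) without LPS, where the WT libraries had 3.96, 4.99 and 5.78 CPM, and at 0.91 (SE 0.20, adjusted p = 0.00732, 1.88-fold) with it. With LPS, the lowest SCR library was above the highest WT library and the lowest KD library above the highest SCR library. Without LPS the WT and SCR libraries overlapped. The call was lost without WT replicate 1 in the unstimulated state (0.64, adjusted p = 0.0748) and without WT replicate 6 under LPS (0.85, adjusted p = 0.0525).

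MT2A was higher in unstimulated KD than in unstimulated WT by 0.41 (SE 0.10, adjusted p = 0.012, 1.33-fold), with no overlap, and under LPS the KD and WT libraries overlapped. TNF, the cytokine gene used to check the LPS labels, moved with it and lay between 12.7 and 18.7 CPM in unstimulated WT, between 35.1 and 47.9 CPM in unstimulated SCR and between 34.9 and 49.6 CPM in unstimulated KD. IL1B, the other such gene, did not: it lay between 1.64 and 2.00 CPM in unstimulated WT, between 1.92 and 3.31 CPM in unstimulated SCR and between 1.01 and 1.49 CPM in unstimulated KD. Their part in the MT2A difference was not tested. SLC39A14 was higher in KD than in WT under LPS by 0.67 (SE 0.21, adjusted p = 0.0447, 1.59-fold), with SCR in between and overlapping both. This call was lost without WT replicate 4 (0.70, adjusted p = 0.0832), WT replicate 6 (0.50, adjusted p = 0.232), KD replicate 4 (0.63, adjusted p = 0.107) or KD replicate 5 (0.55, adjusted p = 0.174). MTF1 was lower in KD than in WT by 0.26 without LPS (adjusted p = 0.0701) and by 0.25 with it (adjusted p = 0.0695). Among the others, MT1E without LPS (0.28, adjusted p = 0.0698), MT1G without LPS (0.48, adjusted p = 0.153) and with it (0.53, adjusted p = 0.115) and SLC30A1 with LPS (0.28, adjusted p = 0.137) had higher means in KD and did not pass in edgeR. MT1E passed with DESeq2 on all libraries (0.29, adjusted p = 0.029), MT1G under LPS with the libraries of the contrast alone (0.51, adjusted p = 0.048) and SLC30A1 with DESeq2 on those libraries (0.27, adjusted p = 0.047). The difference in LPS response between KD and WT passed for 0 of 9 members in edgeR against 0.36% of all genes. At an unadjusted p under 0.05 there were 3 members, MT2A, MT1E and SLC39A14, and 2593 of all genes. DESeq2 on all libraries, which gave MT1X no adjusted p, called 0 members, beside 275 of 9241 genes.

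**Figure D5:**
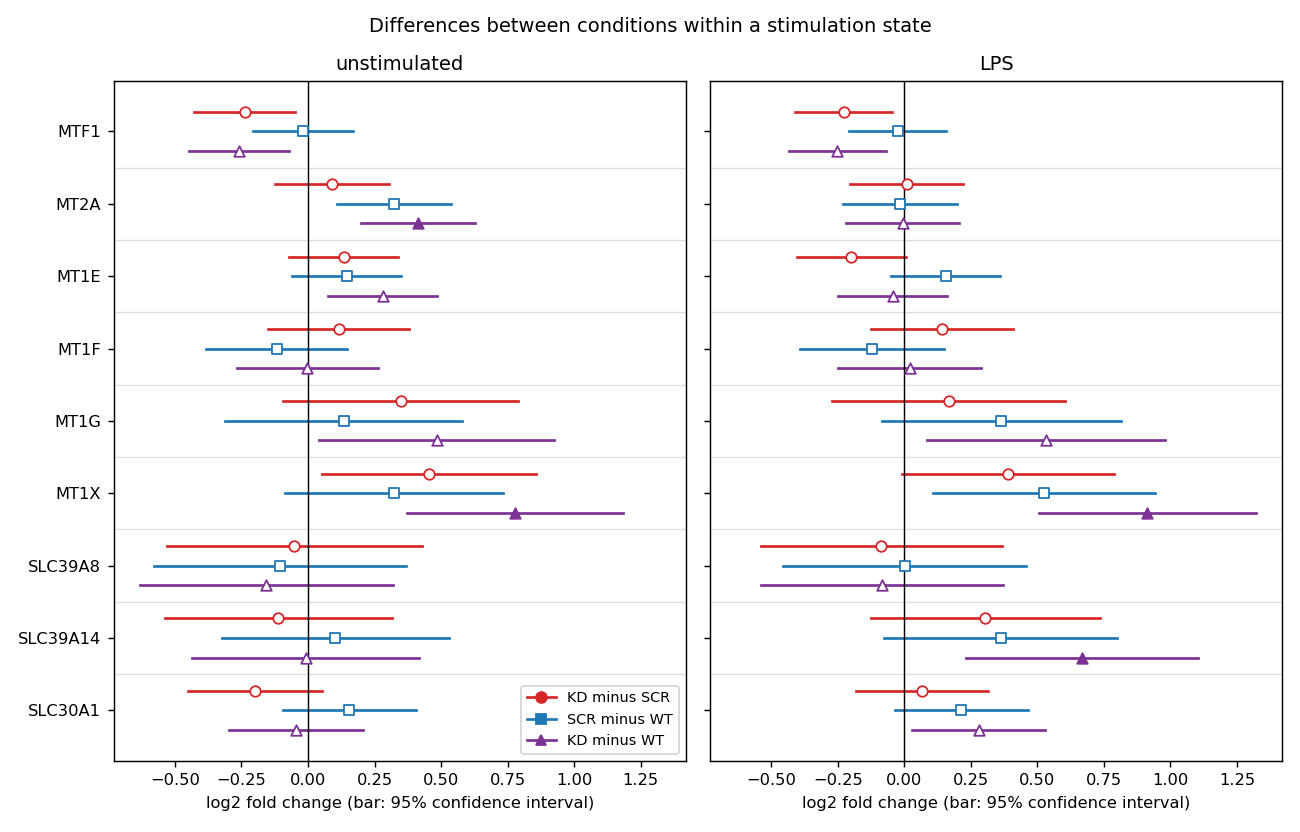
Log2 differences between KD, SCR and WT on the x axis with 95% confidence intervals as bars, without LPS on the left and with LPS on the right (filled symbols passed an adjusted p of 0.05 in edgeR). The filled symbols are MT2A and MT1X without LPS and MT1X and SLC39A14 with LPS, each in KD minus WT, and no KD minus SCR symbol is filled.

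The other genes of the same families were read in the same fits. Of 16 further metallothionein genes and pseudogenes, 15 were matched, 3 had no count in any library and 5 were tested, of which 0 passed in any of the 12 comparisons. Of all genes tested, 0% to 17.2% passed in these comparisons. Together they held 6.05 to 11.3 CPM per library, between 2.74% and 4.18% of all metallothionein RNA. At an unadjusted p under 0.05 there was 1 gene in WT with LPS against WT without it, beside 4426 of all 16678 genes, and 0 in the other comparisons.

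Of 12 further SLC39 importers, 9 were tested. With LPS, 4 passed in WT, 1 of them higher and 3 lower, against 14.3% of all genes tested. In SCR and in KD 3 passed each, 1 of them higher and 2 lower, against 17.2% and 11.5% of all genes. Over the 9 tested, the median log2 change was -0.12 in WT, 0.05 in SCR and 0.02 in KD. SLC39A3, a plasma membrane importer, was lower in all 3 conditions, by 0.90 in WT (SE 0.15, adjusted p = 0.000232), 0.47 in SCR (SE 0.15, adjusted p = 0.0352) and 0.82 in KD (SE 0.15, adjusted p = 0.00079). The SCR call was lost whichever of its 6 libraries was left out (adjusted p from 0.0591 to 0.119). SLC39A9, a Golgi zinc transporter, fell by 0.43 in WT (adjusted p = 0.00547) and 0.49 in KD (adjusted p = 0.00302), and SLC39A11 fell by 0.40 in WT (adjusted p = 0.0181) and 0.56 in SCR (adjusted p = 0.00158). SLC39A4, the intestinal importer lost in acrodermatitis enteropathica, rose by 0.55 in WT (adjusted p = 0.0387). The SLC39A4 call was lost in 4 of 6 fits that left out a library (adjusted p up to 0.215). The WT call of SLC39A11 was lost in 3 of 6 (adjusted p up to 0.117). SLC39A7, which releases zinc from the endoplasmic reticulum, rose by 0.39 in SCR (adjusted p = 0.044), and SLC39A6 rose by 0.47 in KD (adjusted p = 0.0377). The SLC39A7 call was lost in 4 of 6 fits that left out a library, falling to 0.23 without SCR replicate 1 (adjusted p = 0.255), and the SLC39A6 call in 5 of 6, falling to 0.30 without KD replicate 2 (adjusted p = 0.167).

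Between conditions, 0 of these 9 importers passed in KD against SCR, beside 0.066% of all genes without LPS and 0% with it. In SCR against WT, 2 passed without LPS (both lower, 3.23% of all genes) and 0 with it (0.114%). In KD against WT, 4 passed without LPS (11.7% of all genes) and 4 with it (10.8%), each time 1 higher and 3 lower. SLC39A7 was at 94.1 to 101 CPM in unstimulated WT and at 48.2 to 72.0 in SCR and 54.5 to 75.2 in KD, a log2 difference from WT of -0.65 (adjusted p = 0.00743) and -0.61 (adjusted p = 0.00392). SLC39A9 was lower than in WT by 0.58 in SCR (adjusted p = 0.00311) and 0.36 in KD (adjusted p = 0.0239). The remaining calls without LPS in KD against WT were SLC39A4, higher by 0.79 (adjusted p = 0.00493), and SLC39A11, lower by 0.42 (adjusted p = 0.0175). With LPS they were SLC39A4 (0.72, adjusted p = 0.0116), SLC39A9 (-0.42, adjusted p = 0.0141), SLC39A7 (-0.48, adjusted p = 0.0224) and SLC39A13 (-0.37, adjusted p = 0.0327). Of these calls with LPS, those of SLC39A7 and SLC39A13 were each lost in 4 of 6 fits that left out a library. Those of SLC39A4 and SLC39A9 were each lost in 1 of 6. Without LPS, the KD against WT calls of SLC39A9 and SLC39A11 were each lost in 3 of 6.

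Of 10 further SLC30 exporters, 5 were tested and 1 passed once, in a comparison where 11.5% of all genes passed. It was SLC30A7, which loads zinc into the Golgi, with a rise of 0.51 in KD with LPS (SE 0.15, adjusted p = 0.0333) whose libraries overlapped. The SLC30A7 call was lost in 4 of 6 fits that left out a library. Copper also binds metallothioneins, and 11 of 13 copper handling genes were tested. SLC31A1, the main copper importer of the plasma membrane, fell with LPS by 0.99 in WT (SE 0.10, adjusted p = 3.38e-07), by 0.66 in SCR (SE 0.10, adjusted p = 9.95e-05) and by 0.70 in KD (SE 0.10, adjusted p = 4.93e-05). Its libraries went from 76.6 to 87.6 CPM without LPS to 41.5 to 43.1 CPM with it in WT. SLC31A2, a relative found on intracellular membranes, rose by 0.91 in SCR (adjusted p = 0.0384) and by 1.16 in KD (adjusted p = 0.0148). Its SCR call was lost whichever library was left out (adjusted p from 0.0601 to 0.126), and its KD call in 3 of 6 such fits, with values from 0.90 to 1.81. CCS, the copper chaperone of superoxide dismutase, fell by 0.55 with LPS in KD (adjusted p = 0.0363) and was higher in unstimulated KD than in WT by 0.51 (adjusted p = 0.0496). Both CCS calls were lost in 5 of 6 fits that left out a library (adjusted p up to 0.173 and 0.181). STEAP4, a metalloreductase, passed in KD with LPS (adjusted p = 0.00961) at 0.437 to 1.86 CPM against at most 0.156 CPM without it, which is near the level of 3 counts, so no fold is given. No copper gene passed in KD against SCR, where 0.066% of all genes passed without LPS and 0% with it. Of the 29 calls among these further genes, 11 held when each library was left out in turn, among them SLC31A1 in all 3 conditions and SLC39A3 in WT and KD.

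Over the 18 libraries, the genes whose log2 CPM followed MT2A most closely by Pearson correlation were ABCC3, a drug and bile salt exporter (r = 0.952), CD83, an activation marker (0.943), NFKBIE, an inhibitor of NF-kB (0.942), and the near-identical chemokine genes CCL4L1 and CCL4L2 (0.938 each). For SLC39A8 they were OLIG2 (0.944), NBPF12 (0.941), NBPF16 (0.936), NBPF9 (0.936) and ENSG00000243452 (0.932), of which the NBPF genes are near-identical copies that can share reads. The libraries share the split by LPS, so these values describe the 18 libraries only.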

How the data were processed

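RNA of 18 THP-1 libraries was sequenced by QuantSeq. The deposited values are raw read counts per Ensembl gene: the authors aligned reads to GRCh37 with HISAT and counted them with featureCounts against an annotation cut to the final 500 bases of each gene. The treatment of reads that map to several places is not given in the sources used here. Groups were taken from the labels.

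Genes were kept by filterByExpr of edgeR 4.0.16 (R 4.3.3), scaled by TMM and tested in 1 quasi-likelihood fit of all 6 groups, with Benjamini-Hochberg adjustment over 16678 genes and a threshold of 0.05. The steps were tested on simulated data. Fold changes come from fitted means. The limit of 3 counts covers counting error only. The 9 members were all named, further genes only where they passed, at most 8 per comparison by adjusted p, and the 5 genes most correlated with MT2A and SLC39A8 by log2 CPM (prior count of 2). Members and lists were chosen with earlier results of these data known. Cell type markers, TRAFD1, TNF and IL1B served as checks. RefSeq promoters (GRCh38.p14) were matched by symbol for 5 of 9 members.

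Alternatives were DESeq2 size factors, DESeq2 1.42.0 on all libraries or on those of the contrast, no filter, the contrast's libraries alone, each library left out and the replicate number as a block. Only in SCR LPS against WT LPS did every same-numbered pair deviate together more than every other pair (r of 0.163 to 0.261, against -0.194 to -0.009). This pairing was read from the data because the labels give only the numbers. Blocking called 0 members there, as without it, while calls over all 16678 genes went from 19 to 135. In KD against WT without LPS, same-numbered pairs had r of 0.004 to 0.304, against -0.197 to 0.154 for other pairs. Libraries of the same group were compared pair by pair against counting noise, and no duplicate was found. Pairs across groups were not compared in this way.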

Additional observations from a re-analysis of the deposited data

How the results depend on the processing

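Single member results were recomputed only where the log2 value exceeded its SE or the result passed. Smaller values, whose direction changes most easily, were left out. None of the recomputed member values changed direction. Of 712 recomputed values of 57 member results, 681 kept their side of the threshold (uncalled values left without an adjusted p by DESeq2 included), 18 lost and 13 gained a call. Of the 19 member calls, 14 held with each library left out and 5 were lost at least once. The count of members called in SCR against WT without LPS went from 0 to 1 with DESeq2 on all libraries, while calls over all genes went from 538 of 16678 to 929 of 14413. In KD against WT without LPS it went from 2 to 0 with the libraries of the contrast alone and to 1 with DESeq2 on those libraries, and lay between 1 and 2 with each library left out, while all genes called went from 1951 of 16678 to 280 of 15493 and 836 of 13917. With LPS it went from 2 to 4 in both of these fits and lay between 0 and 2 with each library left out, while all genes called went from 1808 of 16678 to 3235 of 14990 and 2949 of 15028, and to 376 of 17250 without WT replicate 6. For the difference in LPS response between KD and WT it went from 0 to 1 without the filter, and lay between 0 and 1 with each library left out, both through SLC39A14 (0.68, adjusted p = 0.0154, and 0.93, adjusted p = 0.0375, without KD replicate 1). All genes called there were 60 of 16678, then 729 of 34092 and 1313 of 17181. The cause was not tested.

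Named calls also changed. MT2A in KD with LPS was lost without the filter (0.35, adjusted p = 0.0531), with the contrast alone (0.35, adjusted p = 0.104) and with DESeq2 on it (0.34, adjusted p = 0.0742), at nearly the same fold. With the contrast alone, MT2A (0.46, adjusted p = 0.072) and MT1X (0.82, adjusted p = 0.102) were lost in KD against WT without LPS. MTF1 in KD against WT with LPS passed in 4 other fits (adjusted p from 0.0183 to 0.0458). SLC39A14 in SCR with LPS passed in 3 (adjusted p from 0.00105 to 0.00641). With the replicate block, 2 members were called in KD against WT in each state. Over all 16678 genes the block called 2423 there without LPS and 2566 with it, against 1951 and 1808 without the block. In KD against SCR it called 0 members, beside 183 and 85 genes (11 and 0 without the block). In SCR against WT it called 0 members, beside 934 and 135 genes (538 and 19 without the block). The block changed no member call, and outside SCR LPS against WT LPS not every same-numbered pair deviated together. MT1X and MT1G, at 52 to 259 counts, had the fewest counts.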
